A study of Rattus norvegicus with 16 samples.

Results

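The mir-10 and mir-196 families are microRNAs whose genes lie inside the Hox clusters. Members were taken by the name of the pre-miRNA hairpin in the deposited tables, that is rno-mir-10a, rno-mir-10b and every name that begins with rno-mir-196, which gave rno-mir-196a, rno-mir-196b and rno-mir-196c. These are 5 of 392 hairpins, with 10 arms, and they held 12985 reads over 16 libraries. The choice was made by name alone, although earlier results of these data were known when it was made. No reads from the antisense strand of these hairpins were listed. Another Hox-cluster miRNA, mir-615, was not analysed here.

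Small RNAs were sequenced from whole brain, heart, liver, spleen, kidney and testis of adult male rats of the inbred strains BN-Lx (a brown Norway strain with polydactyly-luxate syndrome) and SHR (the spontaneously hypertensive rat), and from 2 further livers per strain. The 6 tissues of a strain came from 1 rat, so a tissue had 1 library per strain and 12 libraries made up the six-tissue set. With the further livers, numbered 2 and 3, each strain had 3 livers. The labels name no treatment, and each tissue was ground whole, so that the regions and cell types of an organ cannot be separated.

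Hox genes specify position along the head-to-tail axis of the embryo, and genes at one end of a cluster are active further towards the tail than those at the other. The miRNAs encoded between them are largely expressed with their neighbours, and many adult organs of the trunk keep part of this pattern while the forebrain does not. mir-196 is known for directing the cleavage of Hoxb8 mRNA, and mir-10 shares its ancestry with the mir-99, mir-100 and mir-125 families. A hairpin can yield a mature miRNA from its 5p arm and another from its 3p arm, and the seed, bases 2 to 8, selects most targets.

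In RefSeq (build GRCr8) rno-mir-10a lies between Hoxb5 and Hoxb4 at chr10:81779709-81779818 on the plus strand. The gene of rno-mir-10b lies within the annotated span of Hoxd4, between Hoxd8 and Hoxd3, at chr3:80035859-80035967 on the plus strand. The gene of rno-mir-196a lies between Hoxc10 and Hoxc9 at chr7:135988876-135988985 on the plus strand. The other members of its family are rno-mir-196b, between Hoxa9 and Hoxa10 at chr4:82661101-82661185 on the minus strand, and rno-mir-196c, between Hoxb13 and Hoxb9 at chr10:81727551-81727630 on the plus strand. The mir-10 genes thus sit beside Hox4 genes and the mir-196 genes beside Hox9 genes, nearer the end of each cluster that is active towards the tail.

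The sequences below are shown because the comparisons turn on them. They are the reads listed most often from each abundant 5p arm, taken from the RefSeq hairpins at the deposited positions, with the seed in capitals.
rno-mir-10a-5p: uACCCUGUagauccgaauuugu
rno-mir-10b-5p: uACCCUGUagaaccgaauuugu
rno-mir-196a-5p: uAGGUAGUuucauguuguugg
rno-mir-196b-5p: uAGGUAGUuuccuguuguugg
The mature form that RefSeq gives for rno-mir-196c-5p has the same seed:
rno-mir-196c-5p: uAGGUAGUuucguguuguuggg
The first 22 bases of the mir-10 5p arms differ at 1 position, U12A from mir-10a to mir-10b, counted from 1 at the 5′ base shown. The mir-196 5p arms also differ at position 12 alone, A12C from mir-196a to mir-196b, A12G from mir-196a to mir-196c and C12G from mir-196b to mir-196c. Members of a family therefore share a seed and are told apart by 1 base. Since only perfect matches were kept, and position 12 lay within 6818 of 6820 rno-mir-10a-5p reads and all 3881 of rno-mir-10b-5p, hardly any read could have come from the other mir-10 gene. None of the members' reads had been divided between hairpins.

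The 3p arms did not share seeds in this way. The most common 3p reads were these, again with bases 2 to 8 in capitals.
rno-mir-10a-3p: cAAAUUCGuaucuaggggaau
rno-mir-10b-3p: aCAGAUUCgauucuaggggaa
rno-mir-196b-3p: uCGACAGCacgacacugccuuca
rno-mir-196c-3p: aCAACAACaccaaaccaccuga
From rno-mir-196a only 3 reads of the 3p arm were listed, all in SHR kidney.

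Brain, heart, liver, spleen and kidney of the six-tissue set had between 403453 and 1064894 reads per library, and the further livers between 1167607 and 3229461. The testis libraries held 26880 reads (BN-Lx) and 29131 reads (SHR), so that 3 reads, the largest count that a listed 0 allows, correspond there to 112 and 103 RPM (reads per 1000000 reads of the library). Testis and the SHR liver of the six-tissue set were amplified with more PCR cycles than the other libraries. Of 18 miRNAs known to mark these tissues, 15 were highest in their own tissue in both strains. The exceptions were mir-192, mir-194 and mir-204 of the kidney list, while mir-200b was at 2731 to 9259 RPM in the kidneys and at most at 477 elsewhere. The BN-Lx brain stood apart in epithelial mir-200a, with 1438 RPM against 40.7 in the SHR brain. rno-mir-196a had no read in either brain.

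Levels are given in RPM. rno-mir-10a-5p was at 9.39 and 5.81 RPM in the brains of BN-Lx and SHR, at 126 and 141 in the hearts, at 511 and 447 in the livers of the six-tissue set, at 316 and 252 in the spleens and at 2709 and 4692 in the kidneys. The brain values rest on 10 and 5 reads. In testis it had 0 reads in BN-Lx and 3 reads (103 RPM) in SHR. The kidneys lay above all other libraries, and the brains lay below those of heart, liver, spleen and kidney in both strains, whereas a level in testis below the limit of 3 reads could not be read at this depth.

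The mean level of rno-mir-10a-5p was 7.60 ± 2.53 RPM in brain, 134 ± 10.4 in heart, 284 ± 45.4 in spleen, 479 ± 45 in liver and 3701 ± 1403 in kidney (SD, n = 2, 1 library per strain). Over the pooled reads the kidney level was 481 times that of brain, 27.7 times that of heart, 12.9 times that of spleen and 7.85 times that of liver. In whole tissue, fewer cells of a type and less RNA per cell cannot be told apart. The members' levels in each library are plotted on a log axis.

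**Figure D1:**
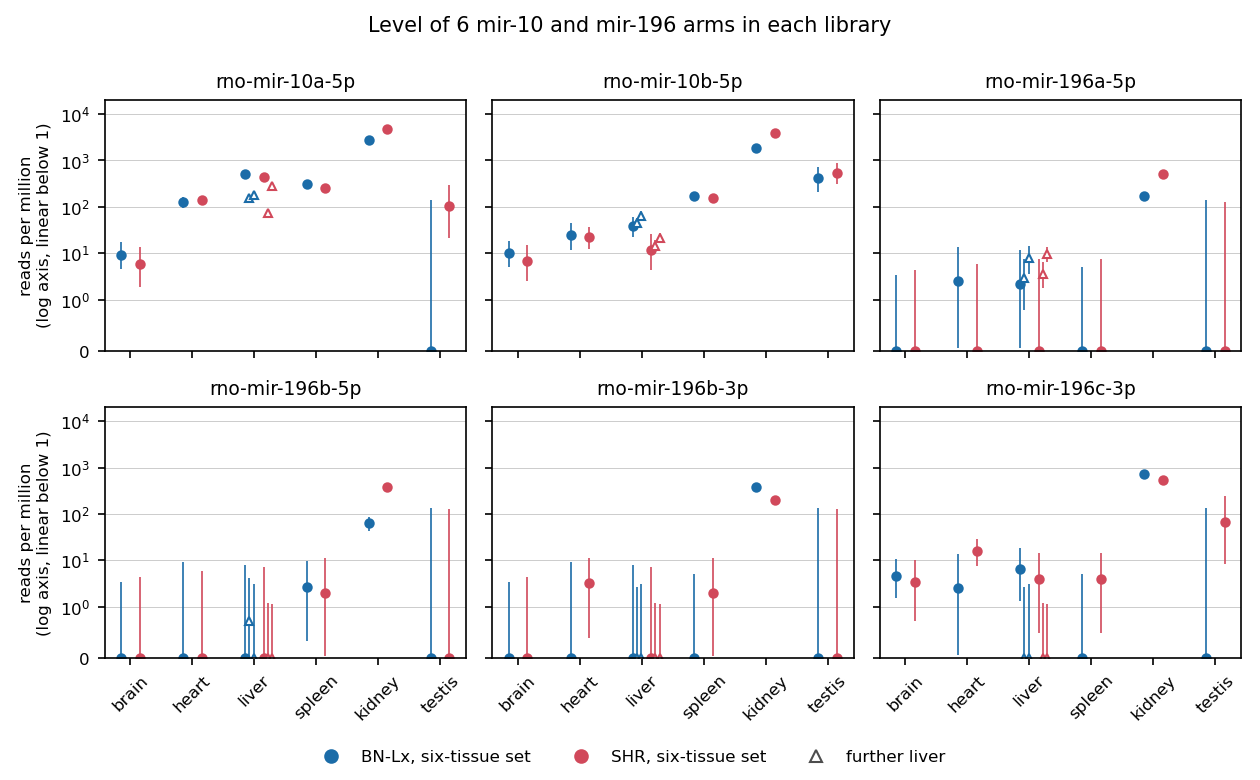
Level of 6 member arms in each library, in RPM (log axis, linear below 1), for BN-Lx and SHR in the six-tissue set (filled circles) and the further livers (open triangles), with bars for 95% exact counting intervals. Both kidneys lie above the listed levels of the other libraries in all 6 panels, although a 0 in testis allows up to 112 RPM, and most mir-196 points outside the kidney are at or near 0.

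rno-mir-10b-5p showed the same extremes with another order in between. It was at 10.3 and 6.97 RPM in the brains of BN-Lx and SHR, at 24.8 and 22.2 in the hearts, at 38.5 and 12 in the livers of the six-tissue set, at 172 and 153 in the spleens, at 409 and 549 in the testes and at 1858 and 3891 in the kidneys. Its testis values rest on 11 and 16 reads and its brain values on 11 and 6. The liver and heart values overlapped, and the brains were the lowest libraries. Heart had a mean of 23.5 ± 1.82 RPM, liver 25.2 ± 18.7, spleen 163 ± 13.6, testis 479 ± 99 and kidney 2875 ± 1438, against 8.65 ± 2.37 in brain (SD, n = 2). Over the pooled reads the kidney level was 331 times that of brain, 126 times that of heart, 118 times that of liver, 17.8 times that of spleen and 6.06 times that of testis.

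The 3p arm of mir-10a was below its 5p arm in every library in which it had reads. In listed levels the order of liver and spleen was turned. By the edgeR test described below, liver and spleen were not separated for the 3p arm (adjusted p = 0.881) or the 5p arm (adjusted p = 0.277). rno-mir-10a-3p was at 0 and 1.16 RPM in the brains of BN-Lx and SHR, 7.44 and 6.34 in the hearts, 15 and 14.0 in the livers, 23.0 and 22.1 in the spleens and 71.7 and 286 in the kidneys, with 0 reads in both testes. rno-mir-10b-3p had 33 and 58 reads in the kidneys (60.6 and 97.0 RPM), 6 and 2 in the spleens and 1 in the SHR liver. The kidneys had the highest listed levels of both arms, but a 0 in testis allows more than the BN-Lx kidney had of either arm, and more than the SHR kidney had of rno-mir-10b-3p.

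Nearly all mir-196 reads of the 12 libraries came from the kidneys. rno-mir-196a-5p was at 171 RPM in the BN-Lx kidney (93 reads) and 520 in the SHR kidney (311 reads). Outside the kidneys of the six-tissue set it had 1 read in the BN-Lx heart and 1 in the BN-Lx liver, and the other 8 libraries had none. The kidneys therefore held 99.5% of its reads. Against 3 reads over both libraries of a tissue, its kidney level was at least 227-fold higher than in brain, 146-fold higher than in spleen and 6.60-fold higher than in testis, the last bound being low because of the testis depth.

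rno-mir-196b gave reads from both arms. Its 5p arm was at 62.5 and 383 RPM in the kidneys of BN-Lx and SHR (34 and 229 reads), with 2 reads in the BN-Lx spleen, 1 in the SHR spleen and none in brain, heart, liver and testis of the six-tissue set. Its 3p arm was at 377 and 202 RPM in the kidneys (205 and 121 reads), with 2 reads in the SHR heart and 1 in the SHR spleen. The kidneys held 98.9% of the reads of the 5p arm and 99.1% of those of the 3p arm. Against 3 reads over both brains, the kidney level was at least 148-fold higher for the 5p arm and at least 183-fold higher for the 3p arm.

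rno-mir-196c was listed almost wholly from its 3p arm, and this arm was the member of its family seen most widely. rno-mir-196c-3p was at 730 and 545 RPM in the kidneys of BN-Lx and SHR (397 and 326 reads). It was at 4.70 and 3.49 RPM in the brains, 2.48 and 15.9 in the hearts, 6.41 and 3.99 in the livers and 0 and 4.02 in the spleens, each on at most 10 reads, and the SHR testis had 2 reads. The kidneys held 96.3% of its reads and lay above all 10 other libraries. Over the pooled reads its kidney level was 152 times that of brain, 123 times that of liver and 59.5 times that of heart. rno-mir-196c-5p had 1 read in the BN-Lx kidney and 9 in the SHR kidney.

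Both kidneys had listed levels above the 10 others for 9 of the 10 member arms, all but rno-mir-196a-3p with its 3 reads, whereas this held for 5.61% of the 695 arms that had a read. Both brains were below all other libraries only for rno-mir-10b-5p among the members, against 4.6% of those 695 arms. For rno-mir-10a-3p, rno-mir-10b-3p, rno-mir-196b-5p and rno-mir-196c-5p the BN-Lx kidney was below what a 0 in testis allows, so that their place above testis could not be read at this depth. As to the brains, for the remaining arms at least 1 other library was at 0 or as low as the brains.

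The tissue levels were tested with edgeR on read counts, in a model of tissue and strain in which the strains served as replicates, and p-values were adjusted over all 458 arms that passed the filter on low counts. Of the member arms 8 were tested, and rno-mir-196a-3p and rno-mir-196c-5p were too low. The mir-196 arms and rno-mir-10b-3p passed this filter through the kidney, so that their difference from the other tissues was in part a condition of being tested. All 8 differed between tissues, as did 83.6% of the 458 arms, so that a difference as such sets no arm apart. The smallest adjusted p belonged to rno-mir-10b-5p (edgeR, 1.59e-06), followed by rno-mir-10a-5p (3.94e-06). Under DESeq2 4 of the 8 were called, and rno-mir-10b-3p, rno-mir-196a-5p, rno-mir-196b-5p and rno-mir-196b-3p were lost.

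Against brain, rno-mir-10a-5p was higher by 5.04 ± 0.76 on the log2 scale in heart (edgeR, adjusted p = 0.00016), by 7.13 ± 0.82 in liver (adjusted p = 2.09e-05), by 6.05 ± 0.79 in spleen (adjusted p = 4.92e-05) and by 9.37 ± 0.90 in kidney (adjusted p = 1.13e-05), where ± gives the standard error. In testis the difference was 2.43 ± 1.09 and did not pass (edgeR, adjusted p = 0.0929), while DESeq2 called it (adjusted p = 0.0436). This testis value rests on the 3 reads of the SHR library. Without the BN-Lx testis library it was 3.56 and passed, and without the SHR testis library it was -4.64 and did not.

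rno-mir-10b-5p was higher than in brain in all 5 other tissues. The difference was 2.38 ± 0.69 on the log2 scale in heart (edgeR, adjusted p = 0.0122), 2.68 ± 0.70 in liver (adjusted p = 0.00577), 5.06 ± 0.71 in spleen (adjusted p = 8.84e-05), 5.45 ± 0.75 in testis (adjusted p = 0.000128) and 8.87 ± 0.83 in kidney (adjusted p = 1.07e-05). The calls in heart and liver did not hold with libraries scaled to their total reads, where the differences were 1.41 and 1.49 (edgeR, adjusted p = 0.106 and 0.0827). Scaled by the study's outlier-corrected mean, which leaves out the most abundant miRNAs, the heart difference was 1.62 and did not pass (edgeR, adjusted p = 0.0626). The heart call was also lost without the SHR brain or the SHR heart (edgeR, adjusted p = 0.0842 and 0.0546), and the liver call without the BN-Lx liver (adjusted p = 0.131). The median of all arms against brain was -0.53 in heart, -0.46 in liver, -0.53 in spleen, -0.20 in kidney and -1.25 in testis, and with total reads it was -1.51, -1.65, -1.37, -0.75 and -1.02. The mir-10 differences lay above this median in every tissue, under the main scaling and with total reads.

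**Figure D2:**
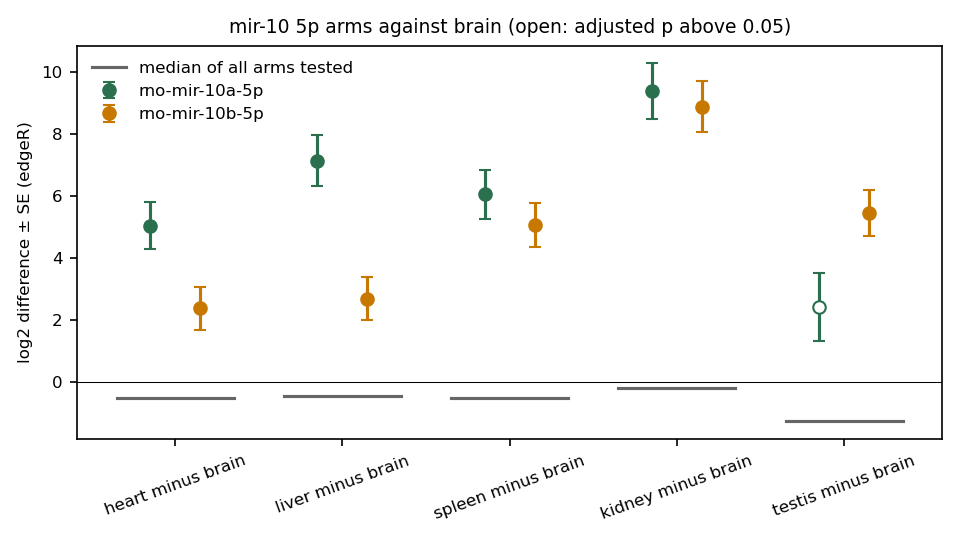
Differences of rno-mir-10a-5p and rno-mir-10b-5p from brain on the log2 scale in 5 tissues, with points and bars for the edgeR estimate ± standard error, an open symbol for an adjusted p above 0.05 and grey lines for the median of all 458 arms tested. The differences in kidney are the largest for both arms, at 9.37 and 8.87.

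Counting all tested members, 3 arms were higher than in brain in heart (rno-mir-10a-5p, rno-mir-10a-3p and rno-mir-10b-5p), where 22.1% of all arms were. The same 3 arms were higher in liver, where 25.1% of all arms were. In spleen rno-mir-10b-3p was called with them, 4 arms in all beside 24.5% of all arms. The call of rno-mir-10a-3p in heart and that of rno-mir-10b-3p in spleen did not hold in every alternative. The former was lost without the BN-Lx brain or the BN-Lx heart (edgeR, adjusted p = 0.0823 and 0.0596), and the latter without either brain or the BN-Lx spleen (adjusted p = 0.0666, 0.0604 and 0.129), and DESeq2 called neither. In testis only rno-mir-10b-5p was called, beside 17% of all arms, and rno-mir-10a-5p, rno-mir-10a-3p and rno-mir-10b-5p were higher in kidney, beside 25.8% of all arms. The 5 other arms were called there too, which for arms tested because of the kidney says nothing further. No member arm was called lower than in brain in any of these comparisons. For rno-mir-10b-3p, rno-mir-196a-5p and both arms of rno-mir-196b, with no read in either brain, such a call was not possible. For rno-mir-10a-3p the brains held 1 read.

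The kidney was called higher than each of the other 5 tissues for rno-mir-10a-5p and rno-mir-10b-5p. Over all arms tested this held for 2.18%, 10 of 458. For rno-mir-10a-3p the difference of kidney from brain was 8.07 ± 1.13 on the log2 scale (edgeR, adjusted p = 0.000138), resting on 1 read in the brains, while its kidney level was not called above that of every other tissue.

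By the study's rule for tissue specificity, an arm is kidney-specific when its reads, divided by a library mean that leaves out the most abundant miRNAs, are at least 5 times those of every other tissue in both strains. The rule named rno-mir-10b-3p, rno-mir-196a-5p, both arms of rno-mir-196b and both arms of rno-mir-196c, 6 of the 10 member arms, and 1.87% of 695 arms in all. It takes a listed 0 as no expression. For rno-mir-10b-3p, rno-mir-196c-5p and, in BN-Lx, rno-mir-196b-5p, a 0 in testis allows more than the kidney level, so the rule could not be read there against testis. In units of that mean, a 0 in testis allows 0.0947 in BN-Lx and 0.0848 in SHR. The BN-Lx and SHR kidneys were at 0.133 and 0.373 for rno-mir-196a-5p and at 0.293 and 0.145 for rno-mir-196b-3p. For rno-mir-196b-5p the SHR kidney was at 0.275. These levels were above the testis values by less than 5 times, so the rule could not be read there either. In SHR rno-mir-196c-3p exceeded testis, its next tissue, by 6.92 times, on 2 testis reads (68.7 RPM, exact counting interval 8.31 to 248). Against the upper end of that interval, its SHR kidney level of 545 RPM was higher by less than 5 times. Pooled over both strains, which the rule does not do, the kidney level against 3 reads over both testes was at least 1.49-fold higher for rno-mir-10b-3p, 4.30-fold for rno-mir-196b-5p and 5.33-fold for rno-mir-196b-3p. rno-mir-10a-5p fell short in BN-Lx, where the kidney exceeded liver, the next tissue, by 3.50 times, against 6.42 times in SHR. rno-mir-10b-5p likewise exceeded testis, its next tissue, by 4.16 times in BN-Lx and 6.17 times in SHR. These arms lay on either side of the limit in the strains. With total reads in place of that mean rno-mir-10a-5p met the rule in both strains, and with at least 10 reads required in each kidney rno-mir-196c-5p was lost. No member avoided a tissue by the mirrored rule.

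Set in the order of their fitted levels, the tissues ran from kidney through liver, spleen, heart and testis to brain for rno-mir-10a-5p. Kidney and liver differed by 2.25 ± 0.64 on the log2 scale (edgeR, adjusted p = 0.0313), and heart and testis by 2.61 ± 0.89 (adjusted p = 0.0440). The latter call was lost by DESeq2 (adjusted p = 0.0791), under each other scaling of the libraries (edgeR, adjusted p up to 0.322, with total reads), with the further livers added (adjusted p = 0.0736), and without any library in turn but the kidneys and the SHR testis (adjusted p up to 0.243, without the BN-Lx testis). By edgeR, liver and spleen (1.07 ± 0.62, adjusted p = 0.277), spleen and heart (1.01 ± 0.63, adjusted p = 0.307) and testis and brain (adjusted p = 0.0929) did not pass the test. The step from kidney to liver was lost without either liver, either spleen or the SHR kidney, the largest adjusted p being 0.193 without the SHR liver.

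The order of rno-mir-10b-5p was kidney, testis, spleen, liver, heart and brain. Kidney exceeded testis by 3.42 ± 0.66 on the log2 scale (edgeR, adjusted p = 0.00203), spleen exceeded liver by 2.38 ± 0.65 (adjusted p = 0.0260) and heart exceeded brain. By edgeR, testis and spleen (0.39 ± 0.63, adjusted p = 0.723) and liver and heart (0.31 ± 0.68, adjusted p = 0.889) were not separated. Spleen and liver were no longer separated without the BN-Lx spleen, the SHR spleen or the SHR liver (edgeR, adjusted p = 0.171, 0.0863 and 0.229), nor with the further livers added (edgeR, adjusted p = 0.0756). Of all tissues, liver and testis changed place most between the mir-10 arms. Testis followed kidney for rno-mir-10b-5p and was next to last, on 3 reads, for rno-mir-10a-5p.

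The balance of the mir-10 genes within a library does not depend on how libraries are scaled. rno-mir-10a-5p made up 93.0% and 97.4% of the mir-10 5p reads in the BN-Lx and SHR livers of the six-tissue set (95% exact intervals 89.2 to 95.8 and 94.4 to 99). In the hearts its share was 83.6% and 86.4%, in the spleens 64.7% and 62.2% and in the kidneys 59.3% and 54.7%. In the brains it was 47.6% of 21 reads and 45.5% of 11 reads, and in the testes 0 of 11 reads and 15.8% of 19 reads. mir-10a thus prevailed most in liver and heart, and less in spleen and kidney. By the most used start alone its share in the SHR kidney was 49.6%. mir-10b prevailed in testis, where the intervals of the mir-10a share (0 to 28.5 and 3.38 to 39.6) lay below those of heart, liver, spleen and kidney. In the further livers the BN-Lx share was 78.2% and 73.9% and the SHR share 84.2% and 92.8%, below the liver of the six-tissue set in both strains.

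**Figure D3:**
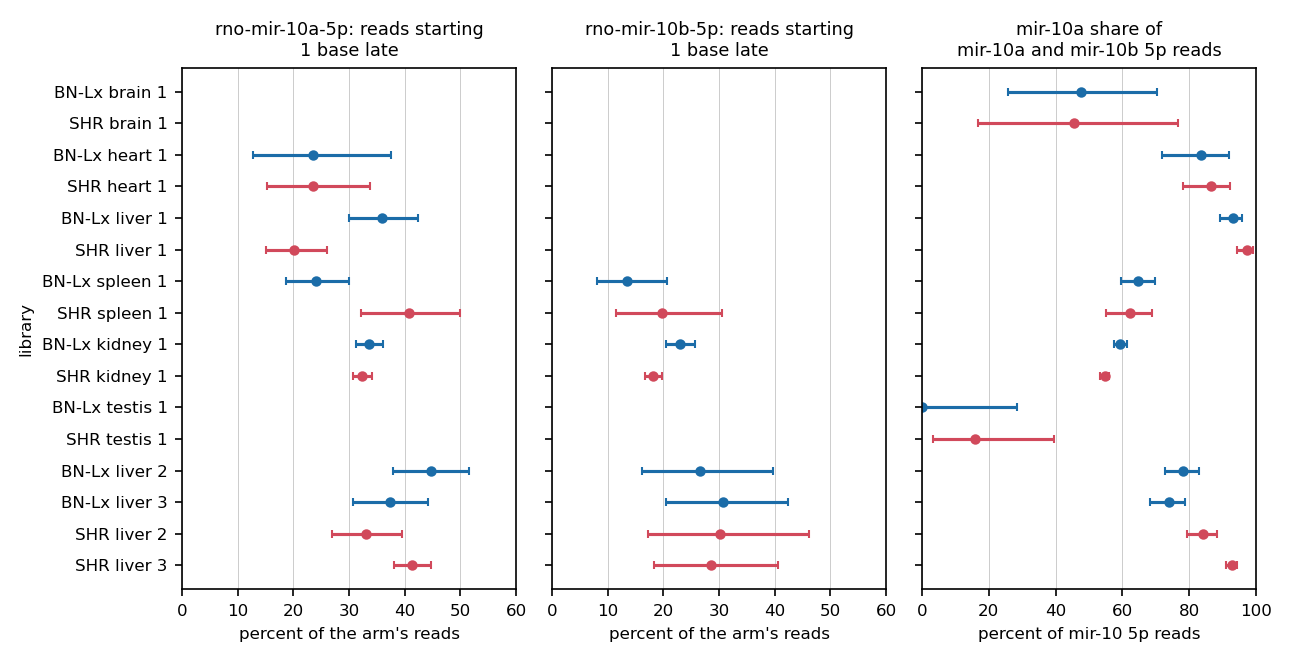
Share of reads that start 1 base after the most used start for rno-mir-10a-5p and rno-mir-10b-5p (libraries with at least 30 reads of the arm), and mir-10a's share of the mir-10 5p reads, in percent, for each library of BN-Lx (blue) and SHR (red), with bars for 95% exact counting intervals. The mir-10a share is highest in the livers and hearts and lowest in the testes.

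The 5′ ends of the mir-10 reads moved the seed. Of 5259 rno-mir-10a-5p reads in the six-tissue set, 67.3% began at the base shown above and 31.9% began 1 base later, which gives this sequence with another seed.
rno-mir-10a-5p, late start: aCCCUGUAgauccgaauuugugu
Of 3633 rno-mir-10b-5p reads, 80.6% began at the base shown above and 19.2% began 1 base later.
rno-mir-10b-5p, late start: aCCCUGUAgaaccgaauuugugu
The mature form in RefSeq starts a further base on:
rno-mir-10b-5p, annotated: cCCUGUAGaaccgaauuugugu
Only 2 of the 3633 reads (0.0551%, 95% exact interval 0.00667 to 0.199) began there, so the annotated seed was not the one that nearly all mir-10b reads carried. The common and the late seed were shared between mir-10a and mir-10b.

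The late start of rno-mir-10a-5p took 33.6% and 32.4% of its reads in the BN-Lx and SHR kidneys, and between 20.1% (SHR liver 1) and 44.7% (BN-Lx liver 2) over the libraries with at least 30 reads. For rno-mir-10b-5p the shares in the kidneys were 22.9% and 18.2%. Within each kidney mir-10a therefore began late more often than mir-10b. The 5p arms of mir-196 scarcely varied. The mature start took 404 of 406 reads of rno-mir-196a-5p (99.5%) and 265 of 266 of rno-mir-196b-5p. Of the 3p arms, the most used start took 91.1% of 751 reads for rno-mir-196c-3p, 89.7% of 329 for rno-mir-196b-3p, 80.4% of 260 for rno-mir-10a-3p and 51 of 100 for rno-mir-10b-3p.

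The kidneys of the strains, 1 rat each, gave nearly all mir-196 reads and differed in several respects that could not be tested. The level in SHR over that in BN-Lx was 1.73 for rno-mir-10a-5p, 2.09 for rno-mir-10b-5p, 3.04 for rno-mir-196a-5p, 6.13 for rno-mir-196b-5p, 3.99 for rno-mir-10a-3p and 1.60 for rno-mir-10b-3p, and below 1 for rno-mir-196b-3p (0.537) and rno-mir-196c-3p (0.747). The median over 199 arms with at least 30 reads in both kidneys was 1.0, and 3 of the 199 were at or above the ratio of rno-mir-196b-5p, itself included. All of the 5p arms and both 3p arms of mir-10 were thus higher in the SHR kidney, and the 3p arms of mir-196b and mir-196c were lower.

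Beside these ratios, the epithelial mir-200 family also differed between the kidneys. mir-200b-3p was at 2729 RPM in BN-Lx and 8714 in SHR, mir-200a-3p at 3749 and 19807, and mir-141-3p at 147 and 329, while mir-205-5p was at 1606 and 784. The part of these differences in the members' ratios was not tested.

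The arms of mir-196b changed their balance between the kidneys. The 3p arm held 85.8% of the hairpin's reads in BN-Lx (95% exact interval 80.7 to 89.9) and 34.6% in SHR (29.6 to 39.8). Of 158 hairpins with at least 30 reads in both kidneys, 2 shifted by at least as much, mir-196b included, and the median shift was 1.10 percentage points. The other members kept their arm, with 99.7% and 97.3% of mir-196c on the 3p arm and 2.58% and 5.74% of mir-10a, 3.16% and 2.43% of mir-10b and 0 and 0.955% of mir-196a.

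The 5p reads also differed in length between the kidneys. Reads of 22 nt made up 10.4% of rno-mir-10a-5p in the BN-Lx kidney and 32.6% in the SHR kidney. The corresponding shares were 32.2% and 53.0% for rno-mir-10b-5p, 1.08% and 27.0% for rno-mir-196a-5p, and 0 of 34 reads and 26.6% for rno-mir-196b-5p. All of these 5p arms had more 22-nt reads in SHR. The 3p arms had no common direction. The share was 20.5% in BN-Lx and 5.26% in SHR for rno-mir-10a-3p, 6.06% and 19.0% for rno-mir-10b-3p, 22% and 23.1% for rno-mir-196b-3p, and 75.3% and 73.3% for rno-mir-196c-3p.

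Over 199 arms the median shift of the 22-nt share between the kidneys was 0.0960 percentage points, and the shifts of these 5p arms ranked 7, 10, 4 and 3 from the top. All reads together had 43.1% and 43.6% of 22 nt in the kidneys. In the hearts, livers and spleens, rno-mir-10a-5p did not show a shift of this size, with 11.8% and 14.6%, 20.9% and 12.1%, and 13.7% and 8.0% in BN-Lx and SHR. In the spleens rno-mir-10b-5p had 24.4% in BN-Lx and 35.5% in SHR, a rise that 17 of 194 arms reached, itself included. The intervals cover counting error only, and 1 kidney per strain does not separate strain from rat or library.

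**Figure D4:**
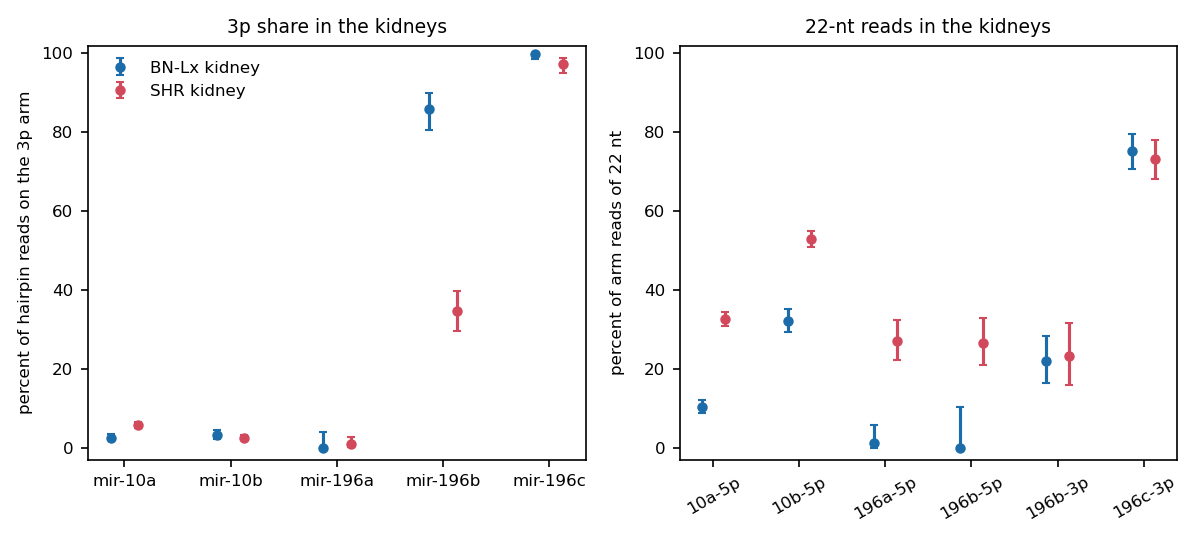
Percent of each hairpin's reads on the 3p arm (left) and percent of reads of 22 nt for 6 arms (right) in the BN-Lx and SHR kidney, 1 library each, with bars for 95% exact counting intervals. The 3p share of mir-196b is 85.8% in BN-Lx and 34.6% in SHR, and the 5p arms have more 22-nt reads in SHR.

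With 3 livers per strain, the strains could be compared. rno-mir-10b-5p was at 38.5, 43.8 and 64.2 RPM in the BN-Lx livers 1 to 3 and at 12, 14.0 and 21.7 in the SHR livers. The listed levels of the strains thus did not overlap. The means were 48.8 ± 13.6 in BN-Lx and 15.9 ± 5.12 in SHR (SD, n = 3), and the exact permutation test gave p = 0.1, the smallest value that 3 livers against 3 allow (two-sided, 20 arrangements). With edgeR SHR was lower by 1.48 ± 0.55 on the log2 scale, which did not pass after adjustment (log2 difference -1.48, adjusted p = 0.994, unadjusted p = 0.0307). With the replicate number as a block the difference was -1.54 ± 0.34 (edgeR, adjusted p = 0.490).

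rno-mir-10a-5p was at 511, 157 and 182 RPM in the BN-Lx livers and at 447, 75.0 and 280 in the SHR livers. The strains overlapped, at means of 283 ± 197 and 267 ± 186 (SD, n = 3, exact permutation p = 1), and in both the liver of the six-tissue set was the highest. rno-mir-10a-3p was at 15, 15.3 and 18.8 RPM in BN-Lx and 14.0, 13.4 and 5.88 in SHR, which did not overlap. The means were 16.4 ± 2.14 and 11.1 ± 4.50 (exact permutation p = 0.1). The closest levels, BN-Lx liver 1 and SHR liver 1, rest on 7 reads each and differ only through library size. Their exact counting intervals, 6.01 to 30.8 and 5.62 to 28.8 RPM, overlapped. The edgeR difference of rno-mir-10a-3p was -0.55 ± 0.54 (adjusted p = 0.994). In listed levels, rno-mir-10b-5p and rno-mir-10a-3p were thus lower in every SHR liver than in every BN-Lx liver. Such a separation, in either direction, was shown by 5.96% of 554 arms, and for rno-mir-10a-3p the read counts do not establish it. Nor do they fully for rno-mir-10b-5p, where BN-Lx liver 1 rests on 18 reads and SHR liver 1 on 6. The exact counting interval of that BN-Lx liver, 22.8 to 60.8 RPM, overlapped those of SHR liver 1 (4.39 to 26.1) and SHR liver 3 (16.9 to 27.4).

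None of the 3 member arms tested in liver was called, nor was any of 270 arms (0%). At an unadjusted p under 0.05 edgeR had 8 arms, and DESeq2 called 0 as well. For strain across all tissues the same model called none of the 8 member arms and 0 of 458 arms (0%), with 7 at an unadjusted p under 0.05. The 6 tissues of a strain came from 1 rat, so this term compares 1 rat of each strain and not the strains. It covers all 6 tissues at once, and a strain difference in the kidney alone, with 1 library per strain, could not be tested.

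rno-mir-196a-5p had reads in the further livers, 4 and 9 for BN-Lx and 11 and 31 for SHR (2.92, 7.71, 3.59 and 9.60 RPM), where the livers of the six-tissue set had 1 and 0. These 55 reads differed from the mature miRNA. Only 1 of them began at the mature start (1.82%, 95% exact interval 0.0460 to 9.72), 54 began 1 to 6 nt later, 51 ended at the same hairpin position, and 18 were shorter than 17 nt. Among 340 arms with at least 20 reads in the further livers, no other had so few reads at its most used start of the six-tissue set, and the median share was 98.0%. Reads under 17 nt were listed only in the further livers, where they made up 0.133% to 0.278% of all reads. In these livers rno-mir-196b-5p had 1 read and rno-mir-196b-3p and both arms of rno-mir-196c had 0 of 8834648.

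**Figure D5:**
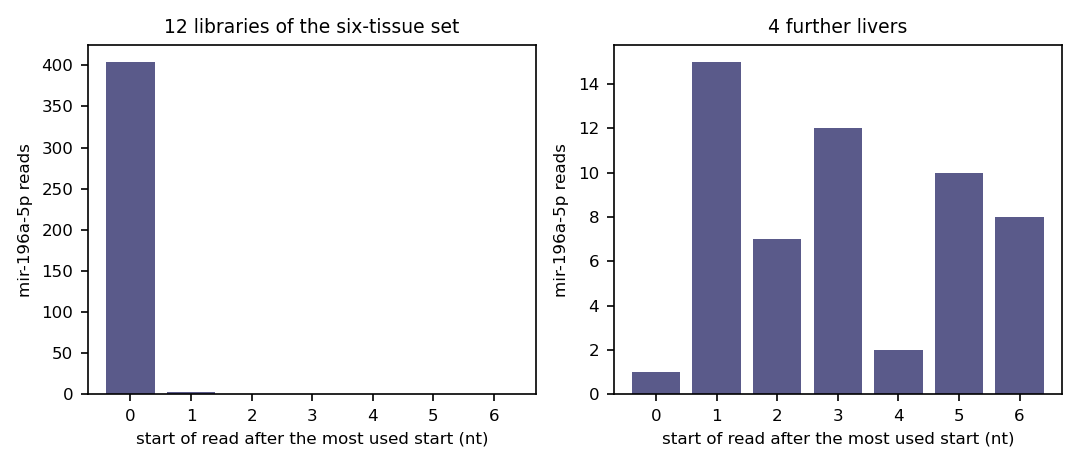
Number of rno-mir-196a-5p reads by start position, in nt after the most used start, over the six-tissue set (left, 406 reads) and in the 4 further livers (right, 55 reads). In the six-tissue set 404 reads begin at the mature start, and in the further livers 54 begin later.

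The arms whose levels were most like those of the members are given as a description. They were ranked by Pearson's r of TMM-scaled log2 CPM over 12 libraries (the six-tissue set), which share rats, library scaling and a testis depth far below the others. For rno-mir-10a-5p they were rno-mir-26b-5p (r = 0.895), rno-mir-28-5p (0.864), rno-mir-30b-5p (0.857), rno-mir-455-3p (0.828) and rno-mir-146a-5p (0.820). For rno-mir-10b-5p they were rno-mir-503-5p (0.809), rno-mir-151-3p (0.760), rno-mir-429 (0.71) and the mir-103 arms, which share reads (0.686). rno-mir-429 (0.861), rno-mir-200a-3p (0.837), rno-mir-141-3p (0.828), rno-mir-205-5p (0.824) and rno-mir-101a-3p (0.799) were closest to rno-mir-196a-5p. Those closest to rno-mir-196b-5p were rno-mir-141-3p (0.878), rno-mir-429 (0.853), rno-mir-200a-3p (0.850), rno-mir-205-5p (0.839) and rno-mir-200c-3p (0.821). Between the members r was 0.965 for the 5p arms of mir-196a and mir-196b and 0.584 for those of mir-10a and mir-10b. In these 12 libraries the 2 mir-196 arms had at most 2 reads in any library outside the kidneys. Every r given for them therefore rests on the kidneys, and 0.965 cannot be set against 0.584.

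The relatives of mir-10 outside the Hox clusters, mir-99a, mir-99b, mir-100, mir-125a and both mir-125b hairpins, had another pattern. Of their 11 tested arms, 3 were higher and 0 lower in heart than in brain, 0 and 5 in liver, 0 and 4 in spleen, 1 and 3 in kidney, and 0 and 2 in testis. rno-mir-99a-5p was at 18065 and 20761 RPM in the brains of BN-Lx and SHR and at 12275 and 17218 in the kidneys, a kidney difference of 0.13 ± 0.30 on the log2 scale (edgeR, adjusted p = 0.724). rno-mir-125a-5p was higher in kidney than in brain by 0.77 ± 0.31 (edgeR, adjusted p = 0.0459), and rno-mir-125b-1-5p differed by -0.96 ± 0.33 (adjusted p = 0.0253). The median of the relatives in kidney against brain was -0.96, beside -0.20 for all arms tested, while the mir-10 5p arms were at 9.37 and 8.87 in the same comparison.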

How the data were processed

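Small RNA of 16 rat libraries was read from tables that hold, per library, the reads at each start and end position on a hairpin. Per the file headers and the study's methods, these are estimated counts made by the authors, without normalization. The authors sequenced on SOLiD, clipped the linker and, with SHRiMP, aligned the reads to hairpins of miRBase and of their own search on RGSC3.4, kept perfect matches and divided reads with several origins evenly. No value column lacked a sample, and the study's own comparisons were not used.

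Here positions were split into 5p and 3p arms at the middle of the hairpin, whose length is from the study's annotation, estimated counts were summed per arm and rounded, and RPM was taken over all hairpin reads of a library. Arms were tested with edgeR 4.0.16 (TMM, filterByExpr, quasi-likelihood F test, two-sided, Benjamini-Hochberg at 0.05) in R 4.3.3 with limma 3.58.1, on tissue and strain over 12 libraries and on strain over 6 livers. Standard errors are the size of the log2 difference over the square root of F. DESeq2 1.42.0 was an alternative. Summaries used scipy 1.17.1, pandas 2.3.3 and numpy 2.4.6 under Python 3.11.15. The tests were tested on simulated counts. The exact permutation test covered all 20 arrangements of the livers. Intervals are Clopper-Pearson at 95%, and a listed 0 was taken by convention to allow 3 reads. Both cover counting error only, since PCR copies cannot be told from molecules. Per the study, the livers of a strain come from separate rats, which the labels do not state.

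Named miRNAs were all arms of the hairpins chosen by name, the fixed list of relatives, and the 5 arms with the highest Pearson's r to each 5p member arm of at least 100 reads. Members, lists and tests were chosen with earlier results of these data known. Livers of both strains share replicate numbers. Deviations of same-numbered livers from their strain means correlated at 0.668, 0.570 and 0.299 over 270 arms, so the replicate number was used as a block in an alternative fit. The main liver fit and the permutation test took the livers as unpaired. Replicate 1 is the six-tissue set, so these correlations do not separate a pairing of livers from a difference between the sets. Alternatives changed the scaling (RLE, total reads, the study's outlier-corrected mean), the filter, the tool, the block, the fold and minimum of the 5-fold rule, the read starts and lengths counted, and the libraries left out or added. Loci and sequences are from RefSeq on GRCr8, where all 5 hairpins matched by name and sequence. Deposited coordinates on RGSC3.4 were not used here.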

Additional observations from a re-analysis of the deposited data

Results flagged for a closer look

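In the 4 further livers, 54 of the 55 rno-mir-196a-5p reads began after the mature start, in data that the tissue comparisons did not use. Among the 6 livers, rno-mir-10b-3p was seen in SHR liver 1 alone, at 2.0 RPM, and rno-mir-196b-5p in BN-Lx liver 2 alone, at 0.730 RPM. Each of these values is a single read, so that its gap to the libraries at 0 is the whole range by construction, and the rate of about 1 in 20 groups that chance gives for continuous values does not apply.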

How the results depend on the processing

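The kidney difference from brain was called under each of 152 alternatives over the 8 tested member arms, which for the mir-196 arms and rno-mir-10b-3p, tested because of the kidney, says nothing of stability. Of 571 alternatives for single arms, 38 moved the value across the threshold. DESeq2 called 4 of 8 members between tissues, since rno-mir-10b-3p, rno-mir-196a-5p, rno-mir-196b-5p and rno-mir-196b-3p did not pass, and 2 members as higher in testis. Scaling to total reads called 67 of all arms as higher in liver in place of 115. Of 10 neighbouring pairs of tissues, 5 were called, against 3 with total reads, 3 with the outlier-corrected mean and 3 with all 16 libraries. By 1 strain alone, 10 arms were kidney-specific in SHR in place of 6, and the number avoiding a tissue was 1 in BN-Lx and 2 in SHR, in place of 0. Counting the most used start alone, the mir-10a share was 54.5% in SHR spleen, 55.5% in BN-Lx kidney, 49.6% in SHR kidney and 72.3% in BN-Lx liver 2. The cause of these shifts was not tested, except that fewer reads or libraries entered the last ones by construction.

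The strain difference of rno-mir-10a-5p in liver was near 0 and turned with the setting, to -0.0643 (RLE, and also DESeq2), -0.0835 (total reads), -0.0796 (outlier-corrected mean), -0.0400 (no filter) and -0.14 (replicate block). Leaving out 1 library at a time gave -0.36 to 0.47 for it, 1 to 2 members higher in testis, 2 to 5 neighbouring pairs called, -4.64 to 3.56 for rno-mir-10a-5p in testis against brain, -0.0863 to 0.73 for rno-mir-10b-5p in testis against spleen and -0.70 to 1.01 for it in liver against heart. With the replicate block 0 arms were called in liver, and without strain in the model, the fit without a replicate block, 8 members differed between tissues as before. The fits with and without the block gave the members the same calls, and the counts over all arms stayed within 1.5 times.

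A 0 in testis allows up to 112 RPM in BN-Lx and 103 RPM in SHR, and each tissue has 1 rat per strain, so strain, rat and library cannot be told apart outside liver.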
